A study of Mus musculus with 12 samples.

Results

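Rny1 and Rny3, the genes of 2 Y RNAs, and Scarna8, the gene of a small Cajal body RNA, were followed in NIH3T3 mouse fibroblasts in which the nucleolar transcription factor UBF had been silenced. They make up 3 of the 19938 genes named on the arrays and 3 of 35512 probe sets, since each symbol was carried by 1 probe set, and all probe sets of these symbols were kept whatever their level. The genes were chosen by their low values with the UBF siRNAs against sirEGFP. Every difference between knockdown and control arrays is therefore given below as a description, with no test. The difference between the UBF siRNAs, and correlations of the arrays' deviations from their group means, did not enter that choice and were tested.

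Expression was measured on 12 Affymetrix arrays, 3 for each of 4 groups, and the submitters describe the 3 as biological replicates. Cells received sirUBF oligo #1 (oligo 1) or sirUBF oligo #2 (oligo 2), independent siRNAs against UBF, or sirEGFP, an siRNA named for EGFP, or Mock treatment with the reagent and no siRNA. Each siRNA was used at 40 nM in the immortalized line, with no other allele or agent named, and RNA was taken at 48 h. UBF, the product of Ubtf, helps RNA polymerase I transcribe the ribosomal RNA repeats. On the log2 scale Ubtf averaged 7.79 ± 0.19 with oligo 1 and 7.74 ± 0.22 with oligo 2, against 8.34 ± 0.32 with sirEGFP and 8.53 ± 0.11 in Mock (SD, n = 3 each). Its mean change with both siRNAs against sirEGFP was -0.58 ± 0.14 (SE), which missed the threshold in limma (adjusted p = 0.0526 over all genes, against a threshold of 0.05, and 0.00386 to 0.204 over its alternatives). Against Mock it was -0.76 ± 0.14 and passed (adjusted p = 0.00968), and all 6 knockdown arrays lay below all 6 control arrays. The mean level of 8 fibroblast markers lay between 9.12 and 9.71 on knockdown arrays and between 8.97 and 9.42 on control arrays. For 5 macrophage markers it lay between 4.88 and 5.16 on knockdown arrays and between 4.72 and 5.06 on control arrays, and their part in the results was not tested. Oligo 1 arrays 1 and 2 and sirEGFP array 1 lay farthest out on the main axis of spread within groups, which held 41.5% of that spread.

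Y RNAs are short non-coding RNAs made by RNA polymerase III from promoters that lie upstream of the gene. They fold into a stem and loop, bind the Ro60 protein and, through their uridine-rich end, the La protein encoded by Ssb, and in human cells they have been tied to the start of DNA replication. Small Cajal body RNAs are close relatives of the small nucleolar RNAs (snoRNAs), but guide the modification of spliceosomal RNAs in Cajal bodies instead of ribosomal RNA in the nucleolus. Scarna8 is of the H/ACA class, which directs pseudouridylation and is bound by dyskerin (Dkc1), Nop10, Nhp2 and Gar1, and in humans its target is the U2 spliceosomal RNA. RNAs of this class are mostly cut out of introns of host genes made by RNA polymerase II. In RefSeq's GRCm38.p6 annotation the gene lengths are 111 bases for Rny1, 101 for Rny3 and 118 for Scarna8. In that annotation Rny3 and Rny1 are separated by 1 pseudogene, Rpl31-ps7, and Scarna8 lies inside the span of Haus6, where its strand and its place among exons and introns were not analysed here. How well RNAs of this length came through extraction and amplification, and whether the probe sets also detect Y RNA pseudogenes, was not tested.

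Rny1 stood at 6.73, 6.67 and 7.55 on the oligo 1 arrays and at 6.95, 6.81 and 6.95 on the oligo 2 arrays, against 7.37, 7.54 and 7.28 with sirEGFP and 7.31, 7.28 and 7.53 in Mock (log2 level, arrays 1, 2 and 3). The knockdown arrays were lower than every control array except oligo 1 array 3, which was the highest of all 12. The group means were 6.98 ± 0.49 with oligo 1 and 6.90 ± 0.078 with oligo 2, against 7.40 ± 0.13 with sirEGFP and 7.37 ± 0.14 in Mock (SD, n = 3 each).

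Rny3 had 10.99, 9.59 and 9.80 on the oligo 1 arrays and 10.68, 9.68 and 9.16 on the oligo 2 arrays, against 11.16, 10.85 and 10.23 with sirEGFP and 11.62, 10.74 and 10.21 in Mock. In all 4 groups array 1 was the highest, and the groups overlapped, with array 1 of both knockdowns above array 3 of both controls. Means were 10.13 ± 0.75 with oligo 1 and 9.84 ± 0.77 with oligo 2, against 10.75 ± 0.47 with sirEGFP and 10.85 ± 0.71 in Mock. Arrays numbered 1 lay on average 0.72 above their group means and arrays numbered 3 lay at -0.54.

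Scarna8 had 5.22, 5.98 and 5.92 on the oligo 1 arrays and 5.74, 5.31 and 6.40 on the oligo 2 arrays, against 6.35, 6.17 and 6.49 with sirEGFP and 6.57, 5.69 and 6.45 in Mock. Oligo 2 array 3 lay among the controls, and Mock array 2 lay among the knockdowns. Its group means were 5.71 ± 0.42 with oligo 1 and 5.82 ± 0.55 with oligo 2, against 6.34 ± 0.16 with sirEGFP and 6.24 ± 0.47 in Mock. These means lay above the array medians (5.38 to 5.54). On oligo 1 array 1 and oligo 2 array 2, however, Scarna8 lay under the lowest of those medians.

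**Figure D1:**
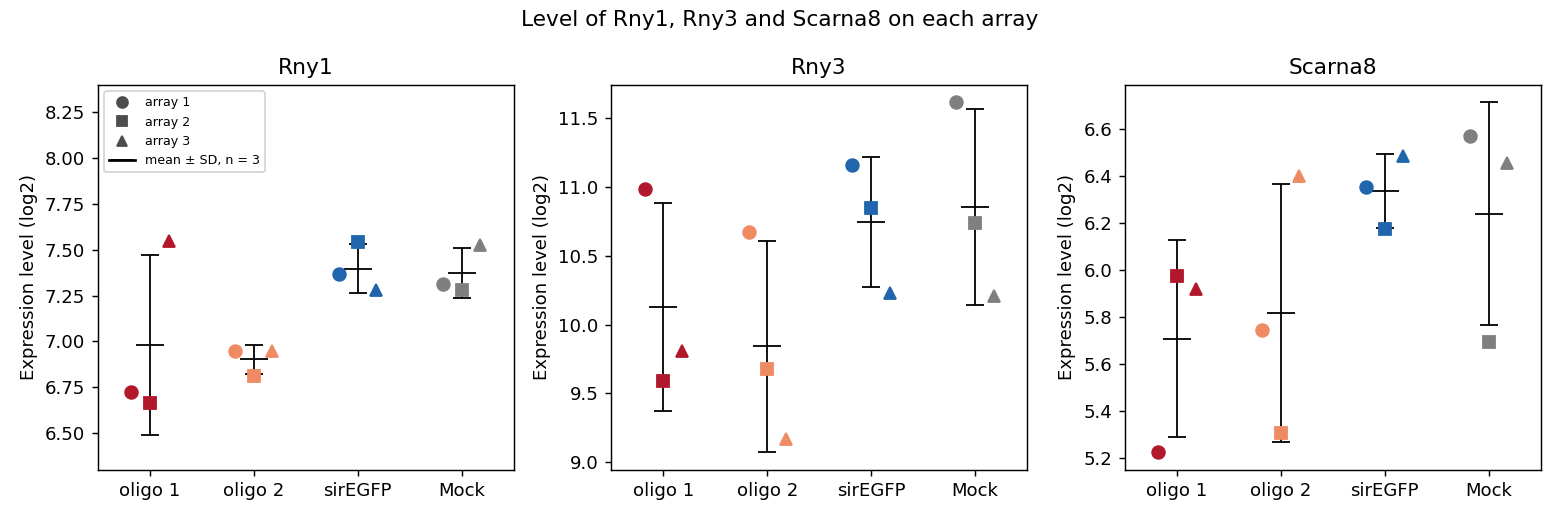
Log2 expression level (vertical axis) of Rny1, Rny3 and Scarna8 on each array, by group; symbols give the array number and black bars the group mean ± SD (n = 3). Rny1 is high on 1 of the knockdown arrays, at 7.55, and Rny3 is highest on array 1 in every group.

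None of the 3 genes separated the groups fully. With all 6 knockdown arrays set against all 6 control arrays, 0 of 3 lay below without overlap, a pattern that 0.692% of all 19938 genes showed. With oligo 1 against sirEGFP only Scarna8 lay below without overlap (7.18% of all genes), and with oligo 2 only Rny1 did (8.62%), which also lay below all 6 controls there (3.85%). As these comparisons include the one that picked the genes, nothing is read from the counts. All 3 genes varied more within groups than most, with a within-group SD of 0.69 for Rny3, 0.43 for Scarna8 and 0.27 for Rny1, against a median of 0.17 over all genes. For Rny3 99.93% of genes had a smaller SD, for Scarna8 98.2% and for Rny1 86.5%, a ranking given without a test.

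In each gene the 2 UBF siRNAs gave the lowest group means. For Rny1 the order from low to high was oligo 2, oligo 1, Mock and sirEGFP, and the step of 0.39 from oligo 1 to Mock was the only one above its within-group SD. Rny3 ran from oligo 2 through oligo 1 and sirEGFP to Mock, with no step above its SD, the widest being 0.62. Scarna8 ran from oligo 1 through oligo 2 and Mock to sirEGFP, and its widest step of 0.42 was also under its SD.

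Against sirEGFP, Rny1 had a log2 difference of -0.42 ± 0.19 (SE) for oligo 1, or 25.1% lower, and -0.49 ± 0.19 for oligo 2, or 29.0% lower. Rny3 had -0.62 ± 0.42 for oligo 1, or 34.9% lower, and -0.91 ± 0.42 for oligo 2, or 46.6% lower. Scarna8 had -0.63 ± 0.27 for oligo 1, or 35.4% lower, and -0.52 ± 0.27 for oligo 2, or 30.3% lower. These comparisons share the 3 sirEGFP arrays, and limma called 2.47% of all genes with oligo 1 and 2.26% with oligo 2. Single arrays moved these values by over 1.5 times. Without oligo 1 array 1 the oligo 1 value was -1.05 for Rny3 and -0.39 for Scarna8, without oligo 1 array 2 it was -0.35 for Rny3, and without sirEGFP array 1 it was -0.41 for Rny3. Without oligo 2 array 2 the oligo 2 value of Scarna8 was -0.27, and without oligo 2 array 3 it was -0.81 for Scarna8 and -0.57 for Rny3. All of these stayed below 0. In arrays of whole cultures, fewer cells of a kind and less RNA per cell cannot be told apart. The mean of both siRNAs against Mock, whose arrays did not enter the choice, was -0.43 ± 0.16 for Rny1, -0.87 ± 0.37 for Rny3 and -0.48 ± 0.24 for Scarna8, with the same 6 knockdown arrays and with 3.30% of all genes called. Without Mock array 1 it was -0.49 for Rny3 and -0.31 for Scarna8, and without Mock array 2 it was -0.75 for Scarna8. The value of Rny1 with oligo 1 also moved with single arrays: it was -0.70 without oligo 1 array 3, -0.26 without oligo 1 array 2, and 0.14 when oligo 1 arrays 1 and 2 and sirEGFP array 1 were left out, a choice made after seeing the data that leaves array 3 as the only oligo 1 array. Without those 3 arrays the mean of both siRNAs against sirEGFP was -0.19 for Rny1, -0.72 for Rny3 and -0.46 for Scarna8.

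The siRNAs against UBF did not differ detectably from each other in any of the 3 genes. For oligo 1 minus oligo 2, Rny1 had a log2 difference of 0.077 (95% interval -0.32 to 0.48, limma adjusted p = 0.918). Rny3 had 0.29 (-0.62 to 1.19, adjusted p = 0.848) and Scarna8 -0.11 (-0.69 to 0.47, adjusted p = 0.9198). Limma called 0 of 3, with 0 at an unadjusted p under 0.05, where 3.67% of all genes were called and 14.4% had an unadjusted p under 0.05. The intervals leave room for differences between the siRNAs as large as those between either siRNA and sirEGFP in Rny3 and Scarna8. For Rny1 the interval reaches past the size of the oligo 1 difference from sirEGFP (-0.42) and nearly to that of oligo 2 (-0.49). With array weights Rny1 was called higher with oligo 1 than with oligo 2 (0.56, adjusted p = 0.0183), without those 3 arrays it stood at 0.65 (adjusted p = 0.105), and over all alternatives its adjusted p lay between 0.0183 and 0.984.

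The group means with the control siRNA lay near those of Mock, but the intervals of these differences were wide. SirEGFP minus Mock was 0.024 ± 0.19 (SE) for Rny1, -0.11 ± 0.42 for Rny3 and 0.099 ± 0.27 for Scarna8, given without a test because the sirEGFP arrays had served in the choice. Over all genes limma called 0 in this comparison, with 1247 (6.25%) at an unadjusted p under 0.05.

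**Figure D2:**
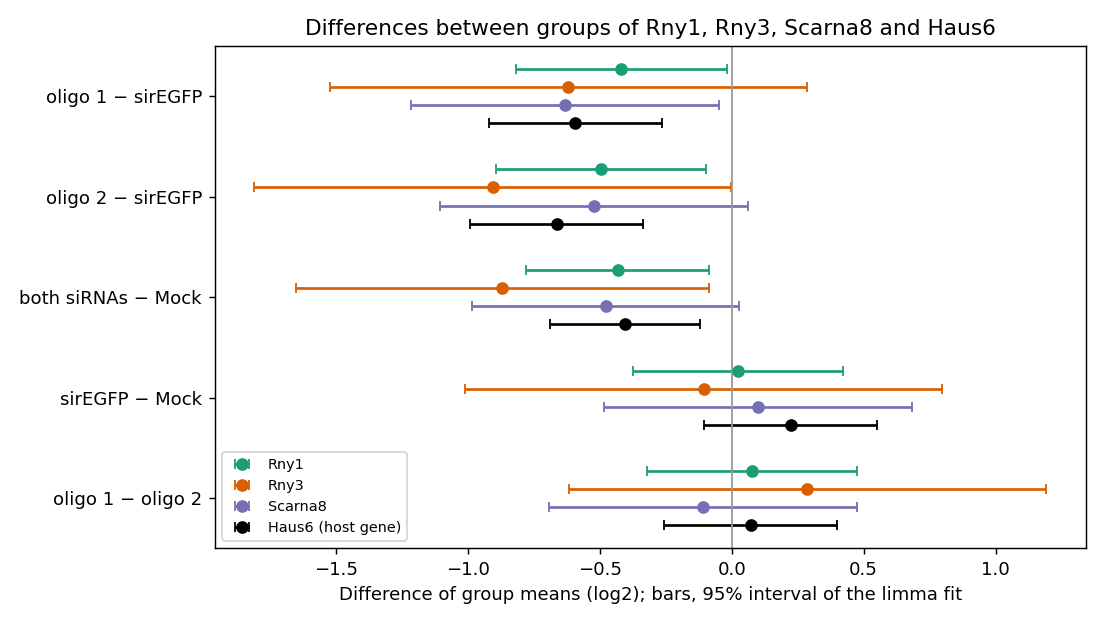
Log2 differences between group means (horizontal axis) for Rny1, Rny3, Scarna8 and Haus6, the gene that contains Scarna8, in 5 comparisons (vertical axis); points are the differences and bars the 95% interval of the limma fit over 12 arrays. Rny3 has the widest intervals, such as -0.62 to 1.19 between the siRNAs, and every interval of oligo 1 minus oligo 2 includes 0.

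The snoRNAs, guides for modifying and processing ribosomal RNA in the nucleolus, tended to lower levels on the same arrays. Across 51 measured snoRNAs the median difference of the mean of both siRNAs from sirEGFP was -0.46, against 0.0078 over all genes. Of the 51, 47 lay below 0 and 27 had an unadjusted p under 0.05, as 13.2% of all genes had. Limma called 4 lower and 0 higher, where 1.93% of all genes were called (1.21% higher and 0.722% lower). The 4, named after their values were seen, were Snora73a, Snora73b, Snora74a and Snord52. Snord95 (-0.46, adjusted p = 0.346) and Snora23 (-0.43, adjusted p = 0.642) lay nearest the median and did not pass. Against Mock the median of the 51 was -0.68, with 48 below 0. There limma called 16 lower and 0 higher, where 1.22% of all genes were called lower and 2.08% higher. The mean level of the 51 snoRNAs was 6.73, 7.13 and 7.05 on the oligo 1 arrays and 6.84, 6.45 and 6.94 on the oligo 2 arrays, against 7.42, 7.13 and 7.44 with sirEGFP and 7.80, 7.11 and 7.56 in Mock. The groups overlapped only through oligo 1 array 2, which lay just above array 2 of both control groups.

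Set against this snoRNA mean array by array, Rny1, Scarna8 and Rny3 stood closer to 0 against sirEGFP. The difference of both siRNAs from sirEGFP became 0.016 for Rny1, -0.10 for Scarna8 and -0.29 for Rny3. For Scarna8 it was -0.27 with oligo 1 and 0.064 with oligo 2. Against Mock it became 0.199 for Rny1, 0.15 for Scarna8 and -0.24 for Rny3. Within a comparison this shift is the same for every gene by construction. It shows only that the snoRNA mean was also lower with the UBF siRNAs, and nothing particular to any of these RNAs. The part of the snoRNA level in their differences was not tested.

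Within groups, Scarna8 followed the snoRNAs by Pearson's r, while the rank correlation did not pass after adjustment. The deviations of its 12 levels from their group means followed those of the snoRNA mean at Pearson's r = 0.92 (exact permutation p = 0.000772 over the 1296 arrangements within groups, two-sided, adjusted p = 0.00772 over 10 relations) and Spearman's rho = 0.87 (exact p = 0.0123, adjusted p = 0.123). Both were low on array 2 of Mock, sirEGFP and oligo 2 and on array 1 of oligo 1. Without the 2 arrays on which Scarna8 lay farthest from its median deviation r was 0.85, and with the means of the replicate numbers removed as well it was 0.96. Leaving out each array in turn gave r between 0.88 and 0.95, each with exact permutation p = 0.00231. This p, like the 0.000772 above, is the smallest that the number of arrangements allows, so it does not measure how steady r is. Without oligo 1 arrays 1 and 2 and sirEGFP array 1 r was 0.91. All these values share an array and an RNA preparation.

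Neither Y RNA showed a relation with the snoRNA mean that passed. The deviations of Rny1 gave r = 0.14 (exact p = 0.754, rho = -0.014, adjusted p = 0.934) and those of Rny3 gave r = -0.092 (exact p = 0.802, rho = -0.22, adjusted p = 0.934). Whether these values differ from that of Scarna8 was not tested. Between the Y RNAs r was -0.19 (exact p = 0.771), and with Scarna8 it was 0.27 for Rny1 (exact p = 0.586) and -0.39 for Rny3 (exact p = 0.333), of which none passed. These values moved with the replicate numbers, as Rny3 was highest on array 1 of every group. With the means of the numbers removed, r was 0.53 between the Y RNAs and -0.52 between Rny3 and the snoRNA mean, and it was -0.11 between Rny1 and the snoRNA mean, all given without a test. With the mean of 13 other small RNAs, r was -0.53 for Rny1 (exact p = 0.142), 0.031 for Rny3 (exact p = 0.934) and 0.065 for Scarna8 (exact p = 0.849). Of the 10 relations only that of Scarna8 with the snoRNA mean passed after adjustment, by Pearson's r.

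**Figure D3:**
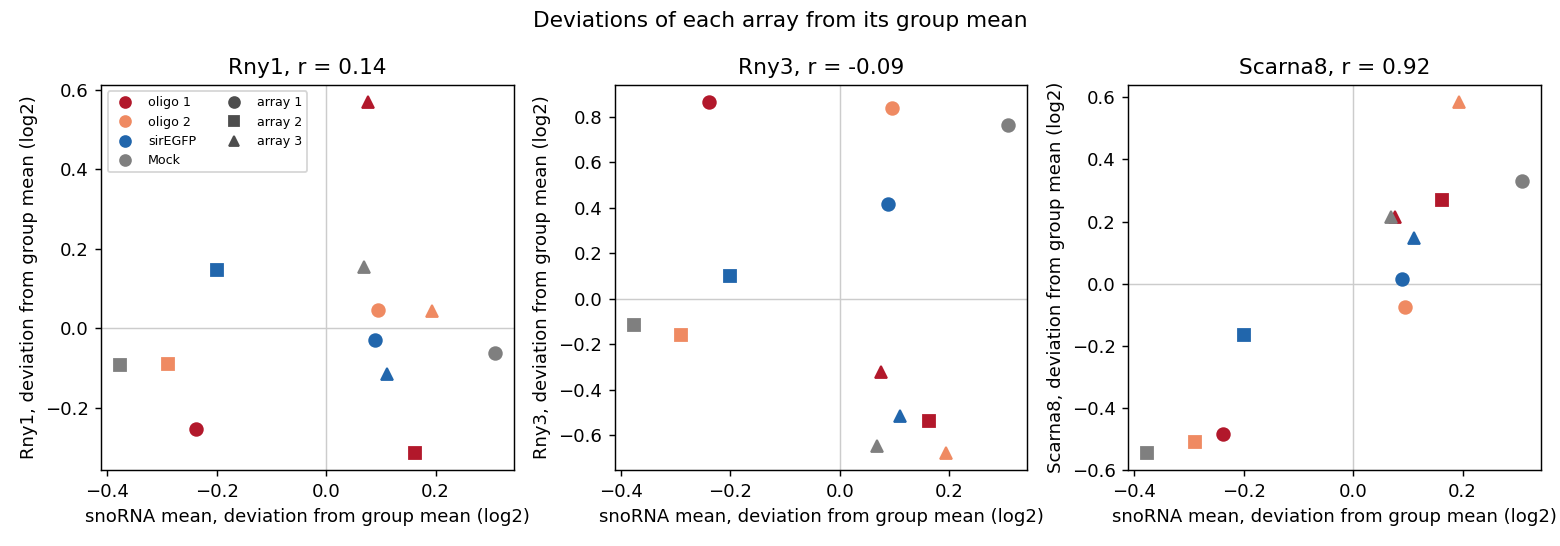
Deviation of each array from its group mean (log2) for Rny1, Rny3 and Scarna8 (vertical axes) against the deviation of the mean of 51 snoRNAs (horizontal axes); colours mark groups and symbols array numbers. The Scarna8 points rise along a line (r = 0.92), while those of Rny1 (0.14) and Rny3 (-0.092) scatter.

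Taken RNA by RNA, and as a description, 46 of 51 snoRNAs had a within-group r above 0 with Scarna8 and 33 had one above 0.5, which is 64.7%, against 10.2% of all other genes. The median r was 0.73 over the 20 H/ACA snoRNAs and 0.72 over the 31 C/D snoRNAs. With Scarna8, the other Cajal body RNAs had r = 0.77 (Scarna13) and 0.75 (Scarna17), and Rn7sk, which restrains transcription elongation, had 0.72. The lowest value among the other small RNAs was that of the 5S ribosomal RNA gene n-R5s136, at -0.87. For Rny1 the median r with the 51 snoRNAs was 0.078 and 3.92% lay above 0.5, near the 3.21% of all other genes. For Rny3 the median was -0.065 and 11.8% lay above 0.5, against 19.8% of all other genes.

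Among 16 small RNAs outside the Snora and Snord families, Rny3, Scarna8 and Rny1 had the lowest differences from sirEGFP, which is how they came to be described. Averaged over both siRNAs, the other 13 lay between -0.31 and 0.25 with -0.043 as their median. Limma called 0 of them, with 0 at an unadjusted p under 0.05, where 13.2% of all genes had one. Scarna17 stood at -0.31, Rmrp, the RNA of RNase MRP, at -0.17, Rnu12 of the minor spliceosome at -0.17, Rpph1, the RNA of RNase P, at -0.16, Scarna13 at -0.11 and Terc, the telomerase RNA, at -0.10. Rnu3a, the U3 RNA and itself nucleolar, stood at -0.043 and Rn7sk at -0.015. Above 0 lay Rnu7, which acts in histone mRNA processing, at 0.050, Rnu5g at 0.076, the vault RNA Vaultrc5 at 0.104, Rnu6 at 0.23 and n-R5s136 at 0.25. Rnu6, Rnu5g and Vaultrc5 had group means of only 2.17 to 2.60, 2.39 to 2.54 and 3.22 to 3.41. These lie far below the array medians, so that little can be read from their differences. Rnu7 (3.68 to 4.33) and Rnu3a (4.73 to 5.10) also lay below the array medians. The median and mean of the 13 include all of these dim RNAs. The mean level of these 13 lay between 6.03 and 6.22 on knockdown arrays and between 6.02 and 6.28 on control arrays, so the groups overlapped.

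**Figure D4:**
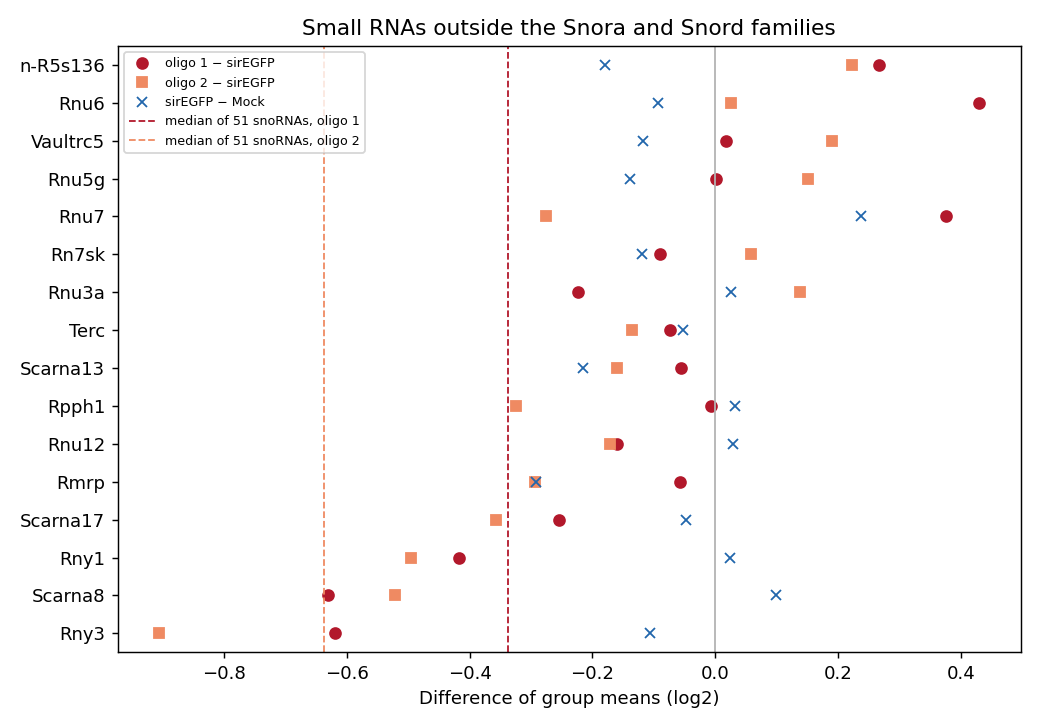
Log2 differences (horizontal axis) of 16 small RNAs (vertical axis) for oligo 1 and oligo 2 against sirEGFP and for sirEGFP against Mock; dashed lines give the median of 51 snoRNAs for each UBF siRNA. For the mean of both UBF siRNAs, the comparison that chose them, Rny3, Scarna8 and Rny1 lie lowest, while for sirEGFP against Mock they lie at -0.11, 0.099 and 0.024, among the other 13.

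Haus6, which contains Scarna8 and encodes a subunit of the augmin complex of the mitotic spindle, was lower with UBF silenced than with sirEGFP. It stood at 9.43, 9.93 and 9.63 on the oligo 1 arrays and at 9.46, 9.69 and 9.62 on the oligo 2 arrays, against 10.04, 10.37 and 10.36 with sirEGFP and 9.96, 9.87 and 10.27 in Mock. All 6 knockdown arrays lay below the 3 sirEGFP arrays, as in 2.11% of all genes, and oligo 1 array 2 lay above Mock array 2. The mean of both siRNAs fell by 0.63 against sirEGFP (SE 0.13, limma adjusted p = 0.0249), or 35.3% lower, while against Mock the difference was -0.40 (adjusted p = 0.126). With oligo 2 it passed against sirEGFP (-0.66, adjusted p = 0.0347) and with oligo 1 it did not (-0.59, adjusted p = 0.0572), and the siRNAs did not differ detectably (0.072, 95% interval -0.25 to 0.40). The call was lost without sirEGFP arrays 2 or 3 (adjusted p = 0.1795 and 0.153), oligo 1 array 3 (0.0607), or oligo 2 arrays 1 or 3 (0.0618 and 0.0519), and with all probe sets in the fit (0.0842). Within groups the deviations of Scarna8 and Haus6 gave r = 0.39 (exact permutation p = 0.274), a relation that did not pass.

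The promoter of Haus6 is shown because the span of this called gene contains Scarna8; whether Scarna8 is made from it was not tested. It covers 250 bases before and 50 after the transcription start, at chr4:86612006-86612305 on the minus strand of GRCm38.p6, from RefSeq, read 5′ to 3′ along the gene. Capitals mark the match to CCAAT, the box bound by NF-Y, on the opposite strand (ATTGG), which begins at position -141 from the start.
Haus6 promoter: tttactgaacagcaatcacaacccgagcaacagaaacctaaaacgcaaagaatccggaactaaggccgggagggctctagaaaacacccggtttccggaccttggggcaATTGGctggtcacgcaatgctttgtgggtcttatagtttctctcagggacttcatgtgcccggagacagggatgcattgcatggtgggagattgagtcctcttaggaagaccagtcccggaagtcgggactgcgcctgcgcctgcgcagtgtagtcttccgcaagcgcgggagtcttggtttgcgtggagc
CCAAT was searched on both strands and occurs in 37.4% of 32851 promoters of this length. TATAAA, searched likewise, occurs in 13.6% of them and has 0 matches here.

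Proteins that bind Y RNAs showed no called change. Of 11 listed and measured, limma called 0 with the mean of both siRNAs against sirEGFP, with 1 at an unadjusted p under 0.05, and the median was 0.056. Over all genes 1.93% were called and 13.2% had an unadjusted p under 0.05, so these counts say little of the list. Mov10, an RNA helicase, stood at 0.61 (adjusted p = 0.273), Ro60, the central partner of Y RNAs, at -0.26 (0.454), Igf2bp1, an mRNA-binding protein that has been found on Y3, at 0.39 (0.535) and the cold shock protein gene Ybx3 at 0.22 (0.619).

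In the machinery that transcribes Y RNA genes 1 subunit was called, and only against sirEGFP. Of 9 measured factors of upstream RNA polymerase III promoters, such as the SNAPc subunits and Bdp1, limma called 0, with 0 at an unadjusted p under 0.05, and the median was -0.021. Tbp (-0.16, adjusted p = 0.492), the repressor Maf1 (0.29, 0.566), Snapc2 (0.22, 0.602) and Snapc3 (-0.16, 0.746) had the smallest p. Of 10 measured subunits of RNA polymerase III itself 7 lay below 0 against sirEGFP. An unadjusted p under 0.05, in either direction, was found for 4 of the 10, against 13.2% of all genes. Against Mock 5 of the 10 lay below 0 and 1 had such a p, against 14.5% of all genes. After adjustment, 1 was called lower and 0 higher against sirEGFP, at a median of -0.051, where 0.722% of all genes were called lower. This was Polr3g, which stood at 7.49, 7.67 and 7.85 with oligo 1 and 8.04, 7.66 and 8.07 with oligo 2, against 8.56, 8.22 and 8.18 with sirEGFP and 7.92, 7.95 and 8.06 in Mock. Polr3g fell by 0.52 (SE 0.13, adjusted p = 0.0481), but lay at -0.18 against Mock (adjusted p = 0.625), since Mock was lower than sirEGFP, and the call was lost in 16 of 21 alternatives. Polr3gl, which encodes the other form of this subunit, stood at 0.33 (adjusted p = 0.275), Polr3f at -0.37 (0.169) and Polr3k at -0.30 (0.277). Between the siRNAs Polr3c was higher with oligo 1 by 0.71 (SE 0.18, adjusted p = 0.0403), a gene named after its value was seen.

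Among proteins of H/ACA particles and Cajal bodies limma called 0 of 10 measured, with 2 at an unadjusted p under 0.05, where 13.2% of all genes had one. With the mean of both siRNAs against sirEGFP 9 of 10 were below 0 at a median of -0.14, as were 9541 of all 19938 genes, and against Mock 7 of 10 were below 0 at a median of -0.084. Gar1 stood at -0.38 (adjusted p = 0.0628), Nop10 at -0.30 (0.230), Dkc1 at -0.21 (0.397) and Smn1, of the survival of motor neuron complex, at -0.18 (0.562). All 6 knockdown arrays of Gar1 lay below all 6 control arrays, as in 0.692% of all genes. Against Mock it was not called either (-0.25, limma adjusted p = 0.215). For Nop10, Dkc1 and Smn1 the knockdown and control arrays overlapped.

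Of 8 nucleases and tailing enzymes that act on the 3′ ends of small RNAs, 1 was called higher and 0 lower, at a median of -0.033, where 1.21% of all genes were called higher and 0.722% lower. Dis3l, the catalytic subunit of a cytoplasmic form of the exosome, had 8.54, 8.24 and 8.36 with oligo 1 and 8.34, 8.05 and 8.22 with oligo 2, against 7.92, 7.50 and 7.51 with sirEGFP and 7.64, 7.63 and 7.82 in Mock. All 6 knockdown arrays lay above all 6 controls, and 2.12% of all genes separated these arrays in either direction. Dis3l rose by 0.65 (SE 0.12, adjusted p = 0.0130) against sirEGFP and by 0.59 (adjusted p = 0.0154) against Mock, and the first call was lost without sirEGFP array 2 (0.116) or 3 (0.103) and with all probe sets in the fit (0.0525). Dis3 stood at -0.32 (adjusted p = 0.223), Usb1, which trims U6, at 0.25 (0.571) and Parn, which in human cells trims H/ACA RNAs, at -0.15 (0.779).

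The genes most like each RNA over the 12 arrays were ranked by Pearson's r, with group differences included and as a description only. For Scarna8 these were Cryba1 (0.94), Snord47 (0.92), Snora31 (0.92), Snora33 (0.92) and Snord14e (0.92), so 4 of 5 were snoRNAs. Rny1 was most like Med4 (0.89), Tcaim (0.87), Ncbp2 (0.87), Ccdc154 (0.84) and Dcaf1 (0.81). Rny3 was most like Rpl36 (0.90), Sugp2 (0.897), Zfp593 (0.885), Tfpt (0.88) and Adipor2 (0.87). No gene was among the 5 of more than 1 of the RNAs, and over the same arrays r was 0.57 between Rny1 and Scarna8, 0.32 between Rny1 and Rny3 and 0.084 between Rny3 and Scarna8.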

How the data were processed

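The authors deposited 1 log2 value for each probe set on each array; that the scale is log2 was judged by the range of the values. How they summarised and normalized the arrays is not given in the sources used here. Limma, without a version, is named in the submitters' processing notes. Amplification started from 100 ng of total RNA, per the labels' protocols. Array medians lay between 5.38 and 5.54, and the values were used as they stood. Names came from the platform annotation, updated through RefSeq GRCm38.p6, where 21698 of 21789 probe sets with 1 symbol matched by Entrez identifier. A gene with several probe sets was represented by its brightest on average. Limma 3.58.1 in R 4.3.3 (lmFit, eBayes, two-sided) was run on all 12 arrays, with 1 coefficient per group, with Benjamini-Hochberg adjustment across 19938 genes. Calls were made at an adjusted p under 0.05. The fit was tested on simulated data with known changes, where noise was drawn independently for each gene and array. That test cannot show how the calls fare where genes share their spread, as on the main axis named above. Within-group relations used exact permutation within groups. The number of arrays limits the precision, and the limma p-values set each difference against the spread between these arrays. Each gene list contributed at most 4 named members, those of lowest p for the mean of both siRNAs against sirEGFP. Also named were Haus6, whose span contains Scarna8, Ubtf, all small RNAs outside the Snora and Snord families, the 2 snoRNAs nearest their median and the 5 genes most correlated with each RNA. Pou2f1 and Zfp143 were not measured as single genes. The genes and lists were chosen with earlier results of these data known. Normalization, centring, a replicate block, a filter on dim genes, array weights, the arrays and probe sets in the fit, eBayes with trend, levels set against the snoRNA mean and each array left out were tried as alternatives.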

Additional observations from a re-analysis of the deposited data

Results flagged for a closer look

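Parn, a ribonuclease that trims the 3′ ends of small RNAs, differed between the UBF siRNAs, and this difference was itself called. It stood at 7.71, 7.32 and 7.52 with oligo 1, against 8.30, 8.29 and 8.32 with oligo 2, and at 8.04, 8.20 and 7.94 with sirEGFP and 7.55, 8.29 and 8.21 in Mock. For oligo 1 minus oligo 2 the log2 difference was -0.78 ± 0.17 (SE, limma adjusted p = 0.0172), with all 3 oligo 1 arrays below all 3 oligo 2 arrays, as in 9.19% of all genes. Against sirEGFP neither siRNA passed, with -0.54 for oligo 1 (adjusted p = 0.131) and 0.24 for oligo 2 (adjusted p = 0.634). The call was lost without oligo 1 array 3 (adjusted p = 0.0660) or oligo 2 array 1, 2 or 3 (0.0569, 0.0611 and 0.0698), with all probe sets in the fit (0.0664) and without oligo 1 arrays 1 and 2 and sirEGFP array 1 (0.167).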

How the results depend on the processing

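Against sirEGFP, the mean of both siRNAs for Rny3 moved by less than its spread within groups in all 22 alternatives (-1.02 to -0.29). That spread (SD 0.69) is nearly as large as the main difference of -0.76, so staying within it says little about stability. The -0.29 is the value set against the snoRNA mean of each array. Set against the snoRNA mean of each array, the differences became 0.016 for Rny1 and -0.10 for Scarna8 (mean of both against sirEGFP), -0.059 for Rny1 with oligo 1, 0.090 for Rny1 and 0.064 for Scarna8 with oligo 2, and 0.199 and 0.15 against Mock. Oligo 1 minus oligo 2 then turned to -0.15 for Rny1. With array weights Rny1 stood at 0.037 with oligo 1 against sirEGFP and at 0.56 for oligo 1 minus oligo 2. Without oligo 1 arrays 1 and 2 and sirEGFP array 1, chosen after seeing the data, Rny1 stood at -0.19 (mean of both against sirEGFP), 0.14 (oligo 1 against sirEGFP) and -0.15 (against Mock), and oligo 1 minus oligo 2 turned to -0.036 for Rny3 and 0.10 for Scarna8. Leaving out each array in turn gave -0.70 to -0.26 for Rny1 with oligo 1 against sirEGFP. For oligo 1 minus oligo 2 it gave -0.21 to 0.23 for Rny1, -0.14 to 0.71 for Rny3 and -0.37 to 0.18 for Scarna8, so these uncalled differences have no stable sign. The genes called with the mean of both against sirEGFP (385) became 163 with all probe sets in the fit, 1949 with array weights, 236 with only the compared arrays and 793 without the 3 arrays named above, and 108 to 722 with each array left out. For oligo 1 minus oligo 2 the 732 became 3164 with array weights, 380 with only the compared arrays, 211 without those 3 arrays and 328 to 833 with each array left out. For sirEGFP minus Mock the 0 became 2 with array weights and 0 to 1 with each array left out. The replicate numbers were not taken as pairs, since not every same-numbered pair had deviations correlated above 0.1. Of 18 such pairs 12 did (median 0.17, lowest -0.24), against 7 of 36 pairs of other numbers (median -0.13), and in 24 of 36 comparisons an array correlated best with its own number. With the replicate block the counts became 789 for the mean of both against sirEGFP, 1094 for oligo 1 minus oligo 2 and 3 for sirEGFP minus Mock, and the differences of the 3 RNAs stayed as they were by construction. Their precision did not: for oligo 1 minus oligo 2 the limma adjusted p of Rny3 became 0.447, still not called. The SEs, intervals and within-group SDs given above do not take out the replicate numbers. Set against the sirEGFP array of the same number, the mean of both siRNAs for Rny3 was -0.33, -1.21 and -0.75. The causes of these shifts were not tested.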
